A study of Homo sapiens with 12 samples.

Results

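Genes that interferons induce, together with the sensors of foreign or misplaced nucleic acid and the factors that relay their signals, were examined in T-47D breast cancer cells treated with the CDK4/6 inhibitor palbociclib. The group was a list of 47 gene symbols, of which 46 had a row among the 19460 genes of the expression table. CGAS was not analysed here. By role, 5 members were signalling factors (STAT2, IRF1, IRF3, IRF7 and IRF9), 6 with a row were sensors and adaptors (RIGI, IFIH1, MAVS, STING1, TBK1 and TRIM25), and 35 were effectors, the induced proteins that act on viruses or on the response itself. Members were matched by symbol, and the list was drawn up with earlier results of these data known. In the test across all genes, 44 of the 46 had a mean of at least 0.5 FPKM (fragments scaled to transcript length and library size). IFI44L (0.141 and 0.109 FPKM in DMSO and palbociclib) and RSAD2 (0.227 and 0.154 FPKM) lay below it.

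T-47D is an established human luminal, oestrogen receptor positive breast cancer line, labelled as wild type for the RNA libraries. Cells received 1 µM palbociclib or the solvent DMSO for 24 h, and no other agent or interferon is named for either group. Poly(A) RNA sequencing and ATAC-seq, in which the transposase Tn5 marks accessible chromatin, each had 3 DMSO and 3 palbociclib libraries. The ATAC libraries are described as coming from separate dishes. For the RNA libraries the labels give only replicate numbers, so p-values measure the spread between these libraries, which may be technical. All cells were of 1 line, and these are bulk measurements, in which fewer cells of a type and less RNA per cell cannot be told apart.

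Cytosolic RNA is bound by the helicases RIG-I (RIGI) and MDA5 (IFIH1), which signal through MAVS and the kinase TBK1 to IRF3 and IRF7 and so to interferon genes, and cytosolic DNA does so through STING1. Secreted type I interferon then acts through JAK kinases on STAT2, which with IRF9 belongs to the complex ISGF3 that binds interferon response elements. Its target genes encode the antiviral effectors, and in breast cancer cells part of this programme can be active without infection.

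The libraries were checked against markers of the labelled cell type and treatment. KRT8, KRT18, KRT19, EPCAM, GATA3, ESR1 and PGR, markers of luminal epithelium, had group means from 43.2 FPKM (ESR1, DMSO) to 2916 FPKM (KRT19, palbociclib), and the proliferation marker MKI67 fell from 30.8 to 1.62 FPKM (limma adjusted p = 8.08e-10). Of the markers of white blood cells and fibroblasts read here, CD14 and COL1A2 were below 0.5 FPKM in both groups and COL1A1 was at 23.65 and 25.1 FPKM in DMSO and palbociclib. Pearson's r of log2 FPKM was at least 0.995 within a group and at most 0.971 between groups. FPKM give no depth, and the ATAC reads in peaks summed to 12830062 to 18250496 per library.

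Most of these genes did not pass the test. At an adjusted p under 0.05 (limma on log2(FPKM + 1), Benjamini-Hochberg over 15869 genes), 10 of the 44 tested members were higher with palbociclib and 3 were lower, while 31 were not called. Over all genes tested, 20.9% were called higher and 22.9% lower, so that 29.5% of the members were called against 43.7% of all genes. The median log2 change was 0.087 over the members and 0.0023 over all genes. A positive value was found in 30 of the 44 members (68.2%), against 50.4% of all genes. Sizes were small, with a median absolute log2 change of 0.12 against 0.16 over all genes, and only IRF9 and OAS3 reached 0.5. The 3 palbociclib libraries lay wholly above the 3 DMSO libraries in 15 members and wholly below in 3, against 54.7% of all genes with groups that did not overlap in either direction. On this log2(FPKM + 1) scale the change of genes with low FPKM is understated.

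**Figure D1:**
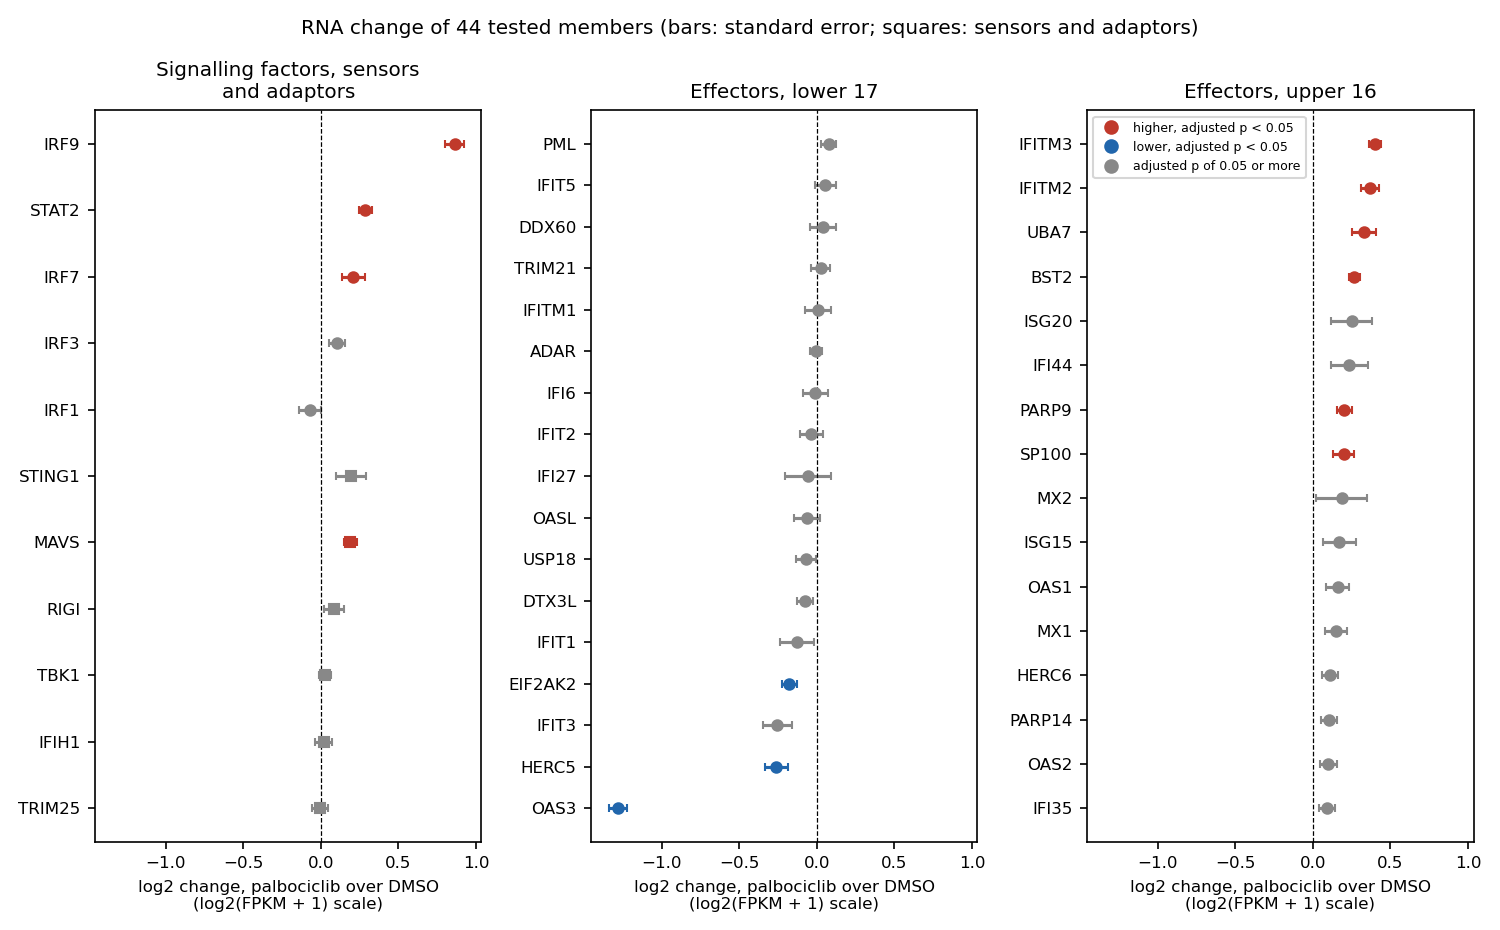
Log2 change (palbociclib over DMSO, horizontal axis, log2(FPKM + 1) scale) of the 44 tested members, with bars for the standard error. The first panel holds the 5 signalling factors above the 6 sensors and adaptors, and the other 2 panels hold the effectors. IRF9 at 0.86 and OAS3 at -1.28 stand apart from the other 42 members.

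The balance between higher and lower calls depended on how the libraries were scaled. With quantile normalization 18 members were called higher and 2 lower, and with each library centred on its median gene 21 were higher and 1 was lower. These scalings moved the median log2 change of all genes from 0.0023 to 0.057 and 0.098, that of the members from 0.087 to 0.181 and 0.182, and the all-gene calls to 4588 higher and 2856 lower, and to 5468 higher and 2465 lower. IRF9, STAT2, IFITM2, IFITM3, BST2, UBA7, PARP9, MAVS and OAS3 were called in the same direction under each of the 13 alternatives tried.

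The authors' deposited table of the same comparison, made with DESeq2, called 9 members higher and 4 lower, and 38.2% of all genes with an adjusted p were called in it. It shared 12 of the 13 calls made here, each with the same sign. IRF7 was called only here. IFIT3, which binds viral RNA in a complex with IFIT1, was called only in the authors' deposited table, with a log2 change of -0.37 and an adjusted p of 0.0305, against -0.255 and a limma adjusted p of 0.0573 here.

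The promoters of a few members are shown here, because the interferon response element is the sequence by which ISGF3 reads these genes. The 2 members that moved most are among them, and a link between the element and their change was not tested. Each line gives the 150 bases before the RefSeq transcription start (GRCh38.p14), 5′ to 3′ on the strand of the gene. Capitals mark the GAAA tandem, which is GAAA followed after any 2 bases by GAAA and is a core of the interferon response element, and TTTCCCGC, a form of the E2F site, searched on both strands. OAS3 is the member with the largest fall, IRF9 the one with the largest rise, BST2 and IFITM3 are effectors that rose, and ISG15 is a widely used marker of the response that was not called. The stretches are chr12:112938324-112938473 on the plus strand for OAS3, chr14:24161115-24161264 on the plus strand for IRF9, chr1:1013347-1013496 on the plus strand for ISG15, chr19:17405631-17405780 on the minus strand for BST2 and chr11:320861-321010 on the minus strand for IFITM3.
OAS3: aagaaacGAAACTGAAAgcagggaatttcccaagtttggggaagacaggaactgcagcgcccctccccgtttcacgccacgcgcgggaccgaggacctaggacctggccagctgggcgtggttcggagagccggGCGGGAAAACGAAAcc
IRF9: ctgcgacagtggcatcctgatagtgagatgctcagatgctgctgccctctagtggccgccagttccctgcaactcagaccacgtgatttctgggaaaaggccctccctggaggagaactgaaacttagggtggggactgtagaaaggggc
ISG15: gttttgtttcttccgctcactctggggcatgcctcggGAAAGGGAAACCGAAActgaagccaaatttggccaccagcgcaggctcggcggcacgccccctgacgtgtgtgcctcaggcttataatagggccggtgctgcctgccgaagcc
BST2: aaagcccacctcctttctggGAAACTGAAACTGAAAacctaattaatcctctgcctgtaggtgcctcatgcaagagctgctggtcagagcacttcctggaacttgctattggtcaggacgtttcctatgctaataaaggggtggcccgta
IFITM3: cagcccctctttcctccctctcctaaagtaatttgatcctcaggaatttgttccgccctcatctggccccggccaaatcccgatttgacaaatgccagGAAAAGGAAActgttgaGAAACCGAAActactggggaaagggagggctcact

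In OAS3, the GAAA tandem lay 143 to 134 bases and again 12 to 3 bases upstream of the start, and the nearer match overlapped TTTCCCGC on the minus strand, 16 to 9 bases upstream. ISG15 held it at 113 to 104 and at 107 to 98 bases, overlapping each other, and BST2 at 130 to 121 and 124 to 115 bases. IFITM3 had it at 52 to 43 and 35 to 26 bases. No GAAA tandem was found in the 250 bases before the IRF9 start, which held TTCNNNGAA, a core of the gamma activated site, 63 to 55 bases upstream. The sequence table gave 45 promoters for 35 members, from RefSeq. The GAAA tandem occurred in 23 of these 45 promoters, against 3.02% of all 35116 promoters of the table. TTCNNNGAA occurred in 11 of the 45, against 6.57% of all, and TTTCCCGC in 3 (OAS3, IFIH1 and RSAD2), against 1.39%. A second E2F form, TTTGGCGC, was in none of the 45 and in 0.55% of all promoters. Among tested members with the tandem, 3 of 18 were called higher and 2 lower, with a median log2 change of 0.048. Among those without it in this window, 4 of 15 were higher and 1 was lower, with a median of 0.083. Of all genes tested, 20.9% were called higher and 22.9% lower, and the difference between members with and without the tandem was not tested. A match here is a description of letters, and no binding was measured.

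Among the signalling factors, 3 of 5 were called higher and none lower, with a median log2 change of 0.21. Over all genes tested, 20.9% were called higher and 22.9% lower, with a median of 0.0023. The 3 include IRF7, which was called in 6 of 13 alternatives. IRF9, the DNA-binding subunit of ISGF3 (chr14:24161265-24166565, GRCh38), measured 12.25, 12.4 and 11.8 FPKM in the DMSO libraries and 20.9, 23.5 and 24.4 FPKM in the palbociclib libraries. Each palbociclib library was above every DMSO library by more than the range of either group. Its mean rose from 12.1 ± 0.339 to 22.9 ± 1.815 FPKM (SD, n = 3 per group; log2 change 0.86 ± 0.060 SE, limma adjusted p = 9.37e-06), an increase of 88.9%, and it ranked 64th of 15869 genes by size of rise. STAT2, the partner that brings the activation domain to ISGF3, measured 25.1, 26.3 and 25.5 FPKM in the DMSO libraries and 30.9, 32.9 and 30.9 FPKM in the palbociclib libraries. The groups did not overlap, and the mean rose from 25.65 ± 0.627 to 31.55 ± 1.13 FPKM (log2 change 0.29 ± 0.040 SE, limma adjusted p = 5.89e-04). The log2 ratio of IRF9 to STAT2 was -0.98, -1.03 and -1.06 in the DMSO libraries and -0.54, -0.47 and -0.33 in the palbociclib libraries, a mean difference of 0.57 between groups that did not overlap. This ratio was formed after the values were seen. An exact permutation over the 20 arrangements of libraries gave p = 0.1, the smallest value possible with 3 against 3, so it cannot decide.

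IRF7, which amplifies type I interferon production, was at low level, with 2.37, 2.38 and 2.73 FPKM in the DMSO libraries and 2.89, 3.23 and 3.01 FPKM in the palbociclib libraries. The groups did not overlap, and the rise from 2.495 ± 0.204 to 3.04 ± 0.172 FPKM was close to the threshold (log2 change 0.21 ± 0.073 SE, limma adjusted p = 0.0476). It was lost in 7 of 13 alternatives, with adjusted p up to 0.147, among them leaving out any library but DMSO replicate 3, and its adjusted p was 0.21 in the authors' deposited table. IRF3, the constitutive factor that TBK1 phosphorylates, measured 28.6, 28.8 and 25.7 FPKM in the DMSO libraries and 30.1, 30.8 and 28.7 FPKM in the palbociclib libraries. The lowest palbociclib value lay within the DMSO range, and the change from 27.7 ± 1.72 to 29.9 ± 1.08 FPKM was not called (log2 change 0.11 ± 0.052 SE, limma adjusted p = 0.135). IRF1, a factor induced mainly by interferon gamma, measured 3.24, 3.02 and 3.41 FPKM in the DMSO libraries and 2.85, 3.11 and 3.13 FPKM in the palbociclib libraries. Its groups overlapped as well, and its mean went from 3.22 ± 0.194 to 3.03 ± 0.156 FPKM without passing the test (log2 change -0.068 ± 0.069 SE, limma adjusted p = 0.461).

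Of the sensors and adaptors, 1 of the 6 tested was called higher and none lower, with a median log2 change of 0.055. That is 16.7% called, against 43.7% of all genes. MAVS, the mitochondrial adaptor of both RNA helicases (chr20:3846834-3876118, GRCh38), measured 12.8, 12.45 and 12.7 FPKM in the DMSO libraries and 14.5, 14.5 and 14.8 FPKM in the palbociclib libraries. All palbociclib values were above all DMSO values with little spread in either group, and the mean rose by 15.3%, from 12.7 ± 0.185 to 14.6 ± 0.152 FPKM (log2 change 0.19 ± 0.040 SE, limma adjusted p = 0.00525). RIGI, the sensor of RNA with a triphosphate end, measured 5.31, 5.24 and 4.82 FPKM in the DMSO libraries and 5.23, 5.88 and 5.34 FPKM in the palbociclib libraries. Its groups overlapped and the difference was not called (log2 change 0.083 ± 0.065 SE, limma adjusted p = 0.342). IFIH1, the sensor of long double-stranded RNA, measured 9.02, 8.41 and 8.02 FPKM in the DMSO libraries and 8.67, 8.42 and 8.72 FPKM in the palbociclib libraries. The palbociclib values fell inside the DMSO range (log2 change 0.019 ± 0.055 SE, limma adjusted p = 0.807).

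TRIM25, a ubiquitin ligase linked to RIG-I signalling, had the highest level of the sensors and adaptors, with 39.6, 38.7 and 35.65 FPKM in the DMSO libraries and 36.2, 37.0 and 40.4 FPKM in the palbociclib libraries. Both groups spanned about the same range (log2 change -0.004 ± 0.054 SE, limma adjusted p = 0.957). TBK1, the kinase that activates IRF3, measured 35.3, 32.75 and 33.3 FPKM in the DMSO libraries and 33.5, 34.5 and 35.2 FPKM in the palbociclib libraries. Its groups overlapped too (log2 change 0.027 ± 0.040 SE, limma adjusted p = 0.625). STING1, the adaptor of the DNA sensing arm, was near the detection filter, with 0.402, 0.479 and 0.683 FPKM in the DMSO libraries and 0.806, 0.671 and 0.738 FPKM in the palbociclib libraries. The highest DMSO value lay within the palbociclib range, and the change from 0.521 ± 0.145 to 0.738 ± 0.0674 FPKM was not called (log2 change 0.20 ± 0.096 SE, limma adjusted p = 0.132). By mean level over 6 libraries the sensors and adaptors ran from STING1 at 0.63 FPKM to TRIM25 at 37.9 FPKM, and the signalling factors from IRF7 at 2.77 FPKM to IRF3 at 28.8 FPKM.

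**Figure D2:**
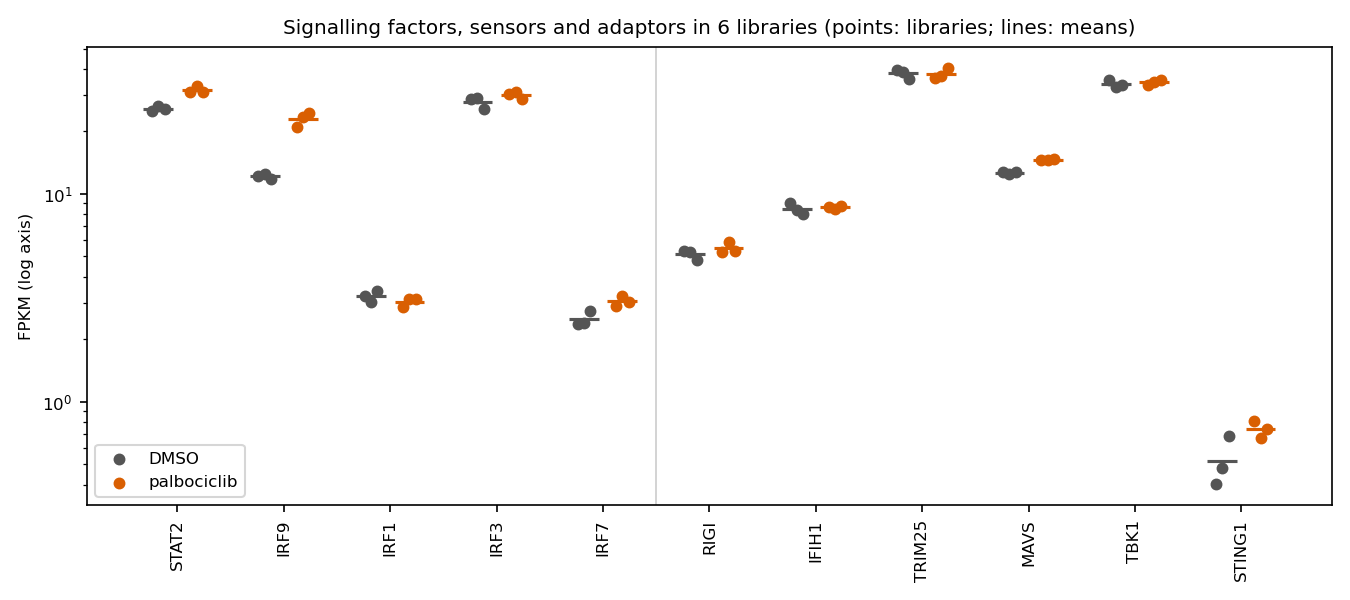
FPKM (log axis) of the 5 signalling factors and, right of the line, the 6 sensors and adaptors in each library, with short lines for group means. IRF9, STAT2, IRF7 and MAVS have palbociclib libraries wholly above the DMSO libraries, while the other 7 genes overlap.

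Among the effectors, 6 of the 33 tested were called higher and 3 lower, with a median log2 change of 0.077 and a range from -1.28 to 0.40. That is 27.3% called, against 43.7% of all genes. Signalling factors, sensors and adaptors together had 4 of 11 higher and none lower (36.4% called), with a median of 0.11. All 3 members that fell were therefore counted with the effectors, and the difference between the roles was not tested. Of the 3, OAS3 and EIF2AK2 bind double-stranded RNA themselves. Counting them with ADAR, DDX60, OAS1 and OAS2 as sensors gave 1 higher and 2 lower of 12 sensors and adaptors (median 0.034), and 6 higher and 1 lower of 27 effectors (median 0.091). Mean levels of effectors ran from 0.13 FPKM for IFI44L to 117.8 FPKM for BST2, with a median of 7.52 FPKM.

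OAS3, which makes short oligoadenylates when it binds double-stranded RNA (chr12:112938474-112973251, GRCh38), measured 20.6, 20.8 and 21.5 FPKM in the DMSO libraries and 7.44, 7.95 and 8.74 FPKM in the palbociclib libraries. Every palbociclib library was below every DMSO library by a wide margin. Its mean fell from 21.0 ± 0.4705 to 8.045 ± 0.657 FPKM (log2 change -1.28 ± 0.059 SE, limma adjusted p = 6.69e-07), so it fell by 61.6%, and it ranked 347th of 15869 genes by size of fall. The authors' deposited table gives a log2 change of -1.38. Its neighbours on chromosome 12 were not called lower. OAS1 had 7.395 and 8.35 FPKM in DMSO and palbociclib (log2 change 0.16, limma adjusted p = 0.111) and OAS2 had 8.745 and 9.45 FPKM (0.10, limma adjusted p = 0.169), both with palbociclib libraries wholly above the DMSO libraries. OASL, which lacks the synthetase activity, had 2.26 and 2.12 FPKM and was not called (-0.065, limma adjusted p = 0.559).

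The log2 ratio of OAS3 to OAS1 was 1.25, 1.52 and 1.40 in DMSO and -0.14, -0.022 and 0.015 with palbociclib. OAS3 was thus the most abundant of the 4 OAS transcripts per length in every DMSO library, and close to OAS1 in the palbociclib libraries. Summed FPKM of the 4 genes went from 39.4 ± 0.946 to 27.97 ± 1.42 FPKM, with no overlap between groups. These ratios and sums were formed after the values were seen, and the sums were not tested. For the ratio, an exact permutation over 20 arrangements of libraries gave p = 0.1. That is the smallest value possible with 3 against 3 libraries, so it cannot decide.

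The other 2 members that fell did so by small amounts. HERC5, the main ligase that attaches ISG15 to proteins (chr4:88457119-88506163, GRCh38), measured 2.55, 2.43 and 2.49 FPKM in the DMSO libraries and 2.06, 1.715 and 1.97 FPKM in the palbociclib libraries. No palbociclib value reached the DMSO range, and the mean fell from 2.49 ± 0.0605 to 1.915 ± 0.1785 FPKM (log2 change -0.26 ± 0.074 SE, limma adjusted p = 0.0204). That call was lost in 3 of 13 alternatives, which were median centring and leaving out DMSO replicate 1 or palbociclib replicate 2, with adjusted p up to 0.0932. EIF2AK2, the kinase PKR that halts translation on binding double-stranded RNA (chr2:37099210-37156980, GRCh38), measured 10.8, 10.65 and 11.1 FPKM in the DMSO libraries and 9.06, 9.52 and 9.87 FPKM in the palbociclib libraries. Its groups did not overlap, and the mean fell from 10.85 ± 0.218 to 9.48 ± 0.408 FPKM (log2 change -0.18 ± 0.049 SE, limma adjusted p = 0.0196). Under quantile normalization and median centring its log2 change was -0.072 and -0.081 and was not called. Its call was also lost without DMSO replicate 3 or palbociclib replicate 1 or 2, with adjusted p up to 0.269 over the alternatives.

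Of the effectors that rose, 2 belong to the IFITM family of membrane proteins, which block virus entry. IFITM3 (chr11:319676-320860, GRCh38) measured 31.6, 33.4 and 32.4 FPKM in the DMSO libraries and 43.2, 42.0 and 44.2 FPKM in the palbociclib libraries. The 3 palbociclib libraries stood well clear of the DMSO libraries, and the mean rose from 32.5 ± 0.936 to 43.15 ± 1.08 FPKM (log2 change 0.40 ± 0.037 SE, limma adjusted p = 5.67e-05). IFITM2 (chr11:307816-309395, GRCh38) measured 70.6, 65.9 and 72.4 FPKM in the DMSO libraries and 87.6, 97.6 and 85.5 FPKM in the palbociclib libraries. Its groups were also apart, with a mean that rose from 69.6 ± 3.37 to 90.2 ± 6.48 FPKM (log2 change 0.37 ± 0.056 SE, limma adjusted p = 9.61e-04). IFITM2 and IFITM3 are close paralogs, so the split of reads between them is uncertain, and their summed FPKM was 102.1 ± 2.75 in DMSO and 133.4 ± 5.46 with palbociclib, without overlap. IFITM1, next to them on chromosome 11, had 29.9 and 30.1 FPKM and was not called (log2 change 0.010 ± 0.083 SE, limma adjusted p = 0.94).

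BST2, or tetherin, which holds budding virus at the cell surface, was the most abundant member (chr19:17402939-17405630, GRCh38) and measured 110.4, 106 and 104 FPKM in the DMSO libraries and 134, 126 and 127 FPKM in the palbociclib libraries. The groups did not overlap, and the mean rose from 107 ± 3.13 to 129 ± 4.17 FPKM (log2 change 0.27 ± 0.036 SE, limma adjusted p = 4.98e-04). UBA7, the enzyme that activates ISG15 for conjugation, measured 1.70, 1.74 and 1.498 FPKM in the DMSO libraries and 2.13, 2.53 and 2.33 FPKM in the palbociclib libraries. All palbociclib values were above the DMSO values, and the mean rose from 1.65 ± 0.132 to 2.33 ± 0.198 FPKM (log2 change 0.33 ± 0.079 SE, limma adjusted p = 0.00963). Of the ISG15 enzymes read here, UBA7 was called higher and HERC5 lower, the latter in 10 of 13 alternatives. ISG15 itself had 4.43 and 5.15 FPKM (log2 change 0.17, limma adjusted p = 0.229), USP18, which removes it, had 6.00 and 5.68 FPKM (-0.069, limma adjusted p = 0.412), and HERC6, a relative of HERC5, had 5.88 and 6.43 FPKM (0.11, limma adjusted p = 0.134).

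PARP9, which acts with the ubiquitin ligase DTX3L in DNA damage and interferon signalling, measured 16.7, 15.3 and 16.6 FPKM in the DMSO libraries and 18.4, 18.4 and 19.5 FPKM in the palbociclib libraries. Its groups did not overlap, and the mean rose from 16.2 ± 0.784 to 18.8 ± 0.661 FPKM (log2 change 0.20 ± 0.049 SE, limma adjusted p = 0.0106). DTX3L, which starts next to PARP9 in the opposite direction, was at 7.74 and 7.295 FPKM and was not called (log2 change -0.076 ± 0.054 SE, limma adjusted p = 0.294). SP100, a component of nuclear bodies, measured 9.78, 9.625 and 8.38 FPKM in the DMSO libraries and 10.3, 10.6 and 11.3 FPKM in the palbociclib libraries. Here too the groups were apart, but the rise from 9.26 ± 0.7645 to 10.8 ± 0.510 FPKM (log2 change 0.20 ± 0.066 SE, limma adjusted p = 0.0408) was lost in 8 of 13 alternatives, among them leaving out any library but DMSO replicate 1, with adjusted p up to 0.116. PML, the organiser of the same bodies, had 11.8 and 12.5 FPKM (0.077, limma adjusted p = 0.236).

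Several of the most abundant effectors were not called. IFI6, an inhibitor of cell death at mitochondria, measured 104, 93.1 and 105 FPKM in the DMSO libraries and 89.6, 97.9 and 113 FPKM in the palbociclib libraries. The palbociclib values spread to both sides of the DMSO values (log2 change -0.009 ± 0.081 SE, limma adjusted p = 0.939). ADAR, which edits adenosine to inosine in double-stranded RNA and so keeps it from the sensors, measured 59.8, 60.4 and 60.5 FPKM in the DMSO libraries and 58.1, 58.9 and 63.3 FPKM in the palbociclib libraries. Its groups overlapped, with means of 60.2 ± 0.373 to 60.1 ± 2.82 FPKM (log2 change -0.004 ± 0.039 SE, limma adjusted p = 0.949). IFI27 varied more among the palbociclib libraries, with 37.8, 33.8 and 38.65 FPKM in the DMSO libraries and 27.1, 36.4 and 44.1 FPKM in the palbociclib libraries. Those 3 values enclosed the whole DMSO range (log2 change -0.059 ± 0.148 SE, limma adjusted p = 0.776).

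Among the 4 IFIT genes, whose products bind viral RNA, limma called no change, and summed FPKM went from 10.7 ± 0.534 to 9.87 ± 0.932 with overlapping groups. IFIT3 had the lowest log2 change of them (-0.255) and IFIT5 the highest (0.054). IFIT3 was called lower in the authors' deposited table and in 4 of 13 alternatives, which were limma without trend, the replicate block, and leaving out DMSO replicate 2 or palbociclib replicate 3. MX1, a GTPase that traps viral nucleoproteins, had 21.0 and 23.4 FPKM in DMSO and palbociclib, and its palbociclib libraries were all above the DMSO libraries, though it was not called (log2 change 0.15 ± 0.072 SE, limma adjusted p = 0.131). MX2 was low, at 0.747 and 1.01 FPKM (0.19, limma adjusted p = 0.389). The other tested members, ISG20, IFI35, IFI44, DDX60, PARP14 and TRIM21, had log2 changes from 0.024 (TRIM21) to 0.25 (ISG20), and none was called.

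**Figure D3:**
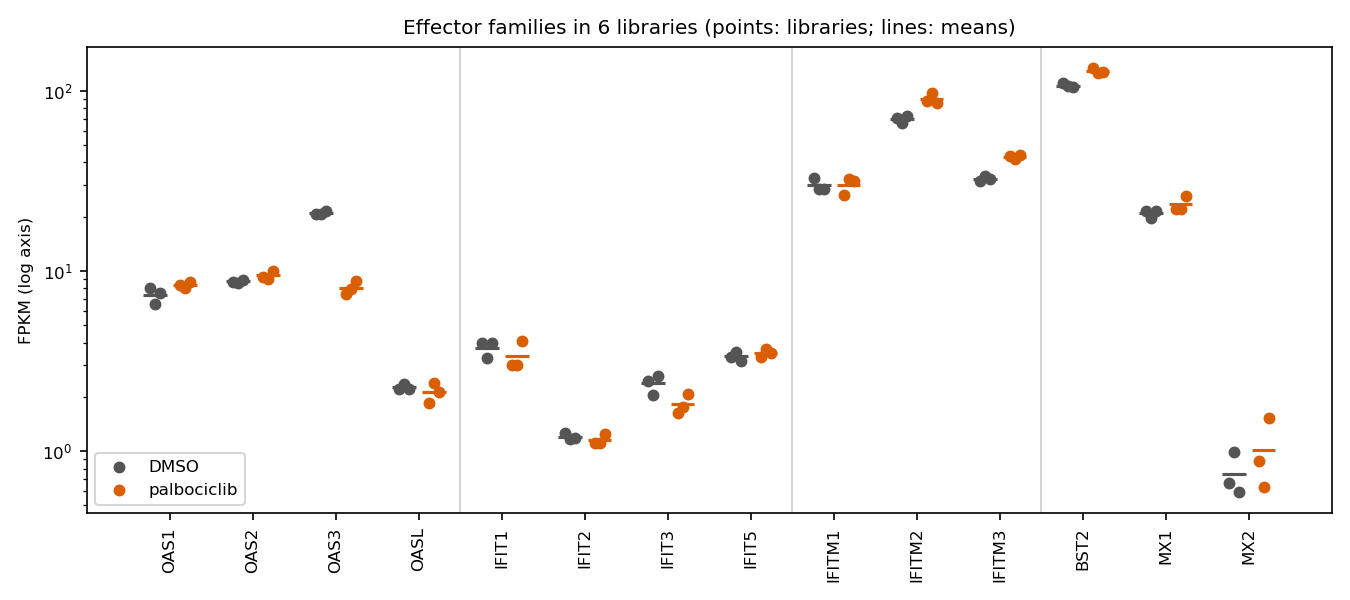
FPKM (log axis) of the OAS, IFIT and IFITM families and of BST2, MX1 and MX2 in each library, with short lines for group means and vertical lines between families. OAS3 drops from 21.0 to 8.05 FPKM on average, IFITM2, IFITM3 and BST2 shift up, and IFITM1 and the IFIT genes overlap between groups.

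The members did not move alike in the 3 palbociclib libraries. Their median log2 value over the DMSO mean was 0.067 and 0.056 in palbociclib replicates 1 and 2 and 0.14 in replicate 3, against 0.018, -0.020 and 0.0069 in the DMSO libraries. Replicate 3 held the highest of the 3 palbociclib values in 28 of the 44 tested members, while over all genes it did so in 33.3%. Without palbociclib replicate 3 the median log2 change of the members was 0.057, and 8 were called higher and 4 lower. The all-gene calls were then 3056 higher and 3364 lower, against 3312 and 3628 with all 6 libraries. Without DMSO replicate 3 the members' median was 0.056, and 10 members were called higher and 2 lower, with 2963 higher and 3247 lower over all genes. The all-gene medians of the 6 libraries lay between -0.0041 and 0.0035.

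**Figure D4:**
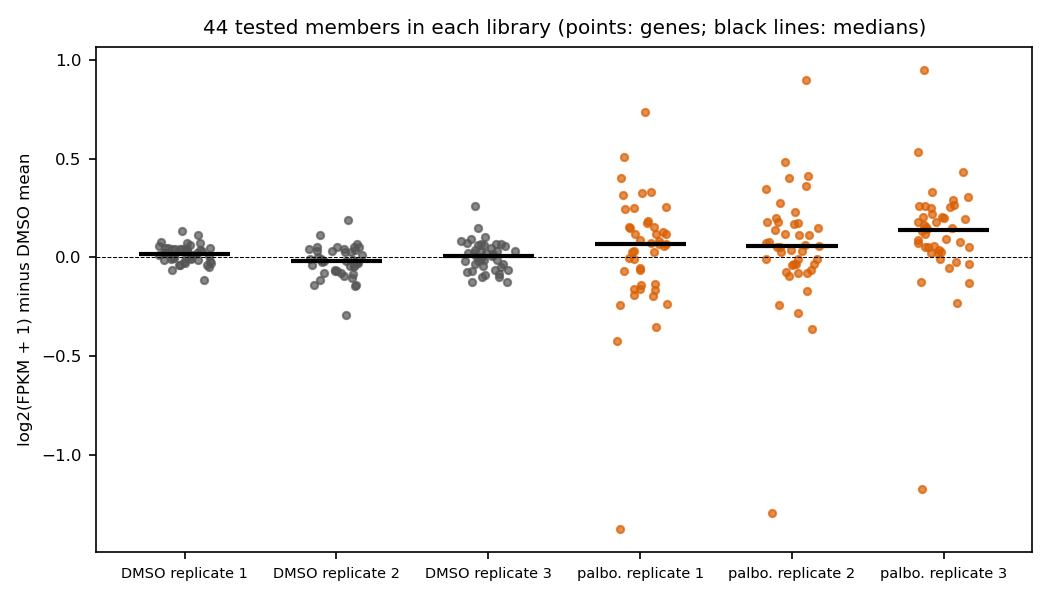
Each point is 1 of the 44 tested members, plotted as log2(FPKM + 1) minus its DMSO mean (vertical axis) in each of the 6 RNA libraries (horizontal axis), with black lines for medians. The medians are -0.020 to 0.018 in the DMSO libraries, 0.067 and 0.056 in palbociclib replicates 1 and 2, and 0.14 in palbociclib replicate 3, and the lowest point with palbociclib is OAS3.

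Other genes of the pathway were read from a second list of 89 symbols, of which 76 had a row and 71 were tested. In it 19 were called higher and 14 lower, or 46.5% against 43.7% of all genes, with a median log2 change of 0.013. The 7 interferon genes on that list were not analysed here. Over all genes tested, 20.9% were called higher and 22.9% lower. Among 9 receptors and kinases, 2 were higher and none lower (22.2% called). JAK1, the kinase shared by all interferon receptors, rose from 82.3 ± 1.20 to 106 ± 1.84 FPKM (log2 change 0.36 ± 0.029 SE, limma adjusted p = 2.60e-05), and IFNGR2, a chain of the interferon gamma receptor, rose from 25.1 ± 2.12 to 29.2 ± 0.749 FPKM (limma adjusted p = 0.0208). Of 19 other sensors and adaptors, 6 were higher and 2 lower (42.1% called). Among those called, the largest log2(FPKM + 1) change was that of DHX58, the RIG-I-like helicase LGP2, which rose from 9.53 ± 0.976 to 13.55 ± 0.470 FPKM (log2 change 0.47 ± 0.071 SE, limma adjusted p = 9.05e-04).

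In 30 other induced genes, 10 were higher, 5 lower and 15 not called, with a median log2 change of 0.074. Of all genes 43.7% were called, with a median of 0.0023, and the difference was not tested. TRANK1 rose from 1.80 ± 0.413 to 3.47 ± 0.592 FPKM (log2 change 0.68, limma adjusted p = 0.00366), TNFSF10, the death ligand TRAIL, from 21.35 ± 0.957 to 29.3 ± 1.92 FPKM (0.44, limma adjusted p = 3.28e-04), and LGALS3BP, a secreted glycoprotein, from 29.9 ± 1.05 to 40.6 ± 0.919 FPKM (0.43, limma adjusted p = 4.48e-05). PLSCR1, a membrane scramblase, fell from 20.3 ± 0.388 to 10.6 ± 0.564 FPKM (log2 change -0.88 ± 0.049 SE, limma adjusted p = 2.19e-06). Of 13 nucleases and other brakes on the pathway, 1 was higher and 7 were lower, with a median log2 change of -0.20. That is 61.5% called, against 43.7% of all genes, and the difference was not tested. The 7 include all subunits of 1 enzyme, RNase H2.

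The largest falls among these brakes were in the 3 subunits of RNase H2, which removes RNA from RNA-DNA hybrids. RNASEH2A measured 50.6, 49.5 and 46.6 FPKM in the DMSO libraries and 8.59, 9.23 and 8.145 FPKM in the palbociclib libraries. It fell from 48.9 ± 2.03 to 8.65 ± 0.545 FPKM (log2 change -2.37 ± 0.053 SE, limma adjusted p = 5.63e-09), a larger fall than that of any member. RNASEH2B fell from 14.4 ± 1.15 to 5.79 ± 0.742 FPKM (log2 change -1.18 ± 0.088 SE, limma adjusted p = 1.39e-05) and RNASEH2C from 42.85 ± 3.74 to 20.55 ± 3.13 FPKM (log2 change -1.03 ± 0.106 SE, limma adjusted p = 1.02e-04). SAMHD1, which breaks down deoxynucleotides, fell from 21.9 ± 1.45 to 18.5 ± 0.122 FPKM (log2 change -0.23 ± 0.051 SE, limma adjusted p = 0.00718). ENPP1 and RNF5, also listed with the brakes, fell more than SAMHD1, with log2 changes of -0.52 and -0.275 (limma adjusted p = 0.0003 and 0.00132).

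Chromatin accessibility was read from ATAC peaks within 1 kb of a listed start of a member. A start was known for 45 members, and 23 of them had a peak there (51.1%, against 43.2% of tested genes with a listed start). Of the 23 peaks, none was called higher and 4 were called lower (edgeR quasi-likelihood test, adjusted p under 0.05). Over all peaks within 1 kb of any listed start 13.2% were called, 129 higher and 825 lower, and over all 38121 peaks 11.9% were called. The median log2 change was -0.057 for the member peaks and -0.046 for all start peaks. An unadjusted p under 0.05 was found for the same number of member peaks, 4 of 23, against 1885 of all 7248 start peaks. Of the member peaks, DESeq2 also called 0 higher and 4 lower.

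The lowest log2 change was at the start of DDX60, a helicase linked to RNA sensing, at chr4:168318150-168318896 (GRCh38). Read counts scaled to library size (CPM) were 25.8, 32.9 and 33.0 CPM in the DMSO libraries and 25.9, 23.2 and 19.7 CPM in the palbociclib libraries. A DMSO library lay within the palbociclib range, so that the groups overlapped, and the log2 change was -0.42 (edgeR adjusted p = 0.00109). DDX60 RNA was not called (log2 change 0.041, limma adjusted p = 0.724). At the HERC5 start, chr4:88456581-88457539, the peak, which also lies within 1 kb of the start of LOC102723458, had 47.3, 46.2 and 47.1 CPM in the DMSO libraries and 36.7, 39.7 and 38.8 CPM in the palbociclib libraries. The groups were apart (log2 change -0.29, edgeR adjusted p = 0.00332). HERC5 RNA was called lower as well. OAS3 and EIF2AK2, the other members called lower in RNA, had no peak within 1 kb of a listed start.

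The peak over the IRF3 start, chr19:49665498-49666222, which also lies within 1 kb of the start of BCL2L12, had 49.3, 46.0 and 43.3 CPM in the DMSO libraries and 36.1, 40.2 and 36.3 CPM in the palbociclib libraries. No palbociclib library reached the DMSO range (log2 change -0.30, edgeR adjusted p = 0.00308). A second peak near IRF3, chr19:49664226-49664945, showed no such difference (log2 change -0.0097, edgeR adjusted p = 0.944). At the IRF7 start, chr11:615415-616278, the peak had 45, 44.5 and 48.9 CPM in the DMSO libraries and 40.0, 38.4 and 37.2 CPM in the palbociclib libraries. Its groups did not overlap (log2 change -0.26, edgeR adjusted p = 0.0097), while IRF7 RNA was called higher. Without DMSO replicate 3 the IRF7 peak had an adjusted p of 0.0904, and the other 3 peaks were called in all 10 alternatives.

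At the starts of the members whose RNA rose most, no change of accessibility was called. The IRF9 peak, chr14:24160805-24161774, had 48.8, 46.5 and 55.0 CPM in the DMSO libraries and 53.2, 54.1 and 43.4 CPM in the palbociclib libraries. Those ranges overlapped almost wholly (log2 change 0.0079, edgeR adjusted p = 0.963). The peak at STAT2, chr12:56359894-56360846, was the highest of the member start peaks, with 311, 282 and 322 CPM in the DMSO libraries and 304, 286 and 288 CPM in the palbociclib libraries (log2 change -0.058, edgeR adjusted p = 0.424). BST2 (log2 change -0.057) and IFITM2 (-0.11) were not called either. OAS3, IFITM3, MAVS, EIF2AK2, UBA7 and SP100 had no peak within 1 kb of a listed start. Farther inside member genes, over 1 kb from the start, 16 peaks were tested and 1 was called, against 11.9% of all 38121 peaks. The called peak was at chr3:122533773-122534446 in PARP9 (log2 change 0.34, edgeR adjusted p = 0.00786).

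**Figure D5:**
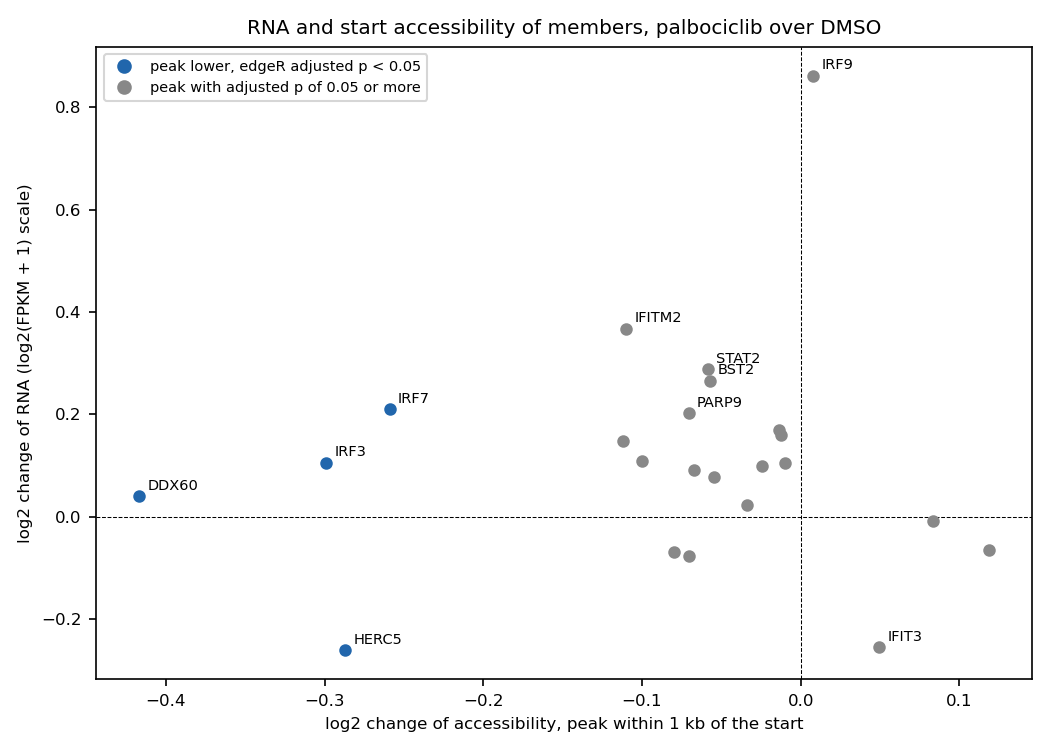
Log2 change of RNA (vertical axis, log2(FPKM + 1) scale) against log2 change of accessibility (horizontal axis) at peaks within 1 kb of the start, for tested members with such a peak. The 4 peaks called lower are in blue at -0.26 to -0.42, and IRF9 sits at 0.86 in RNA and 0.0079 in accessibility.

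Splicing was read from the authors' rMATS tables, which list 502 alternative events in members. Of these, 131 in 30 genes had enough reads in both forms to be tested. None passed an adjusted p under 0.05 (edgeR quasi-likelihood test over 37439 events), where 0.363% of all events did. In the authors' deposited table none of the member events passed an FDR under 0.05, while 1432 events over all genes did. At an unadjusted p under 0.05 there were 6 events, or 4.58% of those tested in members, against 8.53% of all.

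The smallest p belonged to an 84-base retained intron of IRF3, chr19:49663259-49663342 (GRCh38), with an inclusion level of 0.078, 0.103 and 0.087 in the DMSO libraries and 0.056, 0.067 and 0.058 in the palbociclib libraries. Although the groups did not overlap, the difference was not called (edgeR adjusted p = 0.366). The mean inclusion of a mutually exclusive exon of PARP14 went from 0.635 to 0.598 (edgeR adjusted p = 0.501). An alternative 3′ splice site of ISG20 went from 0.145 to 0.0703 (edgeR adjusted p = 0.527). A skipped exon of IFI44, chr1:78650186-78650652, went from 0.618 to 0.831 (edgeR adjusted p = 0.548), on 52 to 102 reads per library.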

How the data were processed

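Values were taken as deposited. Per the submitters' processing notes the RNA data involved fastp 0.23.2, Salmon 1.10.2, STAR 2.7.10b, SAMtools 1.16 and DESeq2 1.44.0 on GRCh38. The ATAC data involved FastQC 0.12.1-0, Bowtie2 2.5.4-6, SAMtools 1.22.1-0, Picard 3.4.0-0, MACS3 3.0.3-0 and deepTools 3.5.6-0 on GRCh38/hg38. The order and role of each tool are not given in the sources used here. The authors gave FPKM per gene and library, and column totals differ between libraries. Per the file headers, the authors' DESeq2 table holds a mean normalized count over libraries (a signal value), log2 fold changes, a Wald score and p-values. The authors' rMATS tables hold inclusion and skipping reads and levels, the difference of levels as a score, p-values and an FDR. Per the file headers, the authors used featureCounts 2.0.6 to obtain ATAC read counts over 1 peak set.

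Groups came from the labels. RNA was compared with limma 3.58.1 (R 4.3.3, trend) on log2(FPKM + 1) over genes with a mean of at least 0.5 FPKM. Peaks were compared with edgeR 4.0.16 (quasi-likelihood, TMM, filterByExpr, which removed 0 peaks), with DESeq2 1.42.0 as an alternative. Splicing events that averaged 20 or more reads, with a minor form of at least 5%, were compared with edgeR on reads of both forms, with library terms. Calls in the main setting used p-values that were Benjamini-Hochberg adjusted over all features tested, and the code was tested on simulated data. The exact permutation p-values and those named as unadjusted were not adjusted. Gene starts came from RefSeq, with strand from the promoter table or the splicing tables. Intervals on CPM were not computed, and ATAC depth is given as reads in peaks.

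The members, roles, second gene list and motifs were chosen with earlier results of these data known. Given in full were all tested signalling factors, sensors and adaptors, up to 6 called effectors with the largest rise and up to 6 with the largest fall, and the 4 most abundant effectors. The text also names genes outside that rule, chosen after their values were seen. They include members of the OAS, IFIT, IFITM and ISG15 families, IFI27, DTX3L, PML, MX1, MX2, SAMHD1, ENPP1, RNF5, IFNGR2 and JAK1. Of pathway genes the rule named the 4 largest rises and falls, of peaks those called, and of events the 4 with the smallest p. Deviations of same-numbered libraries from their group means had correlations of 0.11, -0.0051 and 0.088 in RNA and 0.0056, 0.042 and -0.028 in ATAC, so the numbers were not taken as pairs. Results for some genes are not reported here.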

Additional observations from a re-analysis of the deposited data

How the results depend on the processing

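The alternatives covered the pseudocount, the filter on low FPKM, quantile normalization, median centring, limma without trend, a replicate block and leaving out each library. All 13 called members kept their sign in each of 13 alternatives, and 9 stayed called in all. With quantile normalization 18 members were higher, and with median centring 21 were higher and 1 lower. Median centring also gave 5468 higher genes overall and 8 lower in the pathway list. Leaving out 1 library left 1 to 4 members lower, with 1 without palbociclib replicate 2. With the 6 RNA-binding genes moved, 2 sensors and adaptors and 1 effector were lower.

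Of the members not called, 13 were called in some alternative, among them OAS1, OAS2, MX1, HERC6, PARP14, PML, IFI35 and IRF3 under both scalings. Only members that were not called turned sign. Median centring adds the same constant to every gene, so those just below 0 turned by construction, to 0.0282 for IRF1, 0.0865 for IFI6, 0.0371 for IFI27, 0.0613 for IFIT2, 0.0306 for OASL, 0.0265 for USP18, 0.0199 for DTX3L, 0.0914 for TRIM25 and 0.0921 for ADAR. With quantile normalization it was 0.0167 for IFI6, 0.00904 for IFI27, 0.0123 for USP18, 0.013 for DTX3L, 0.0577 for TRIM25 and 0.0459 for ADAR. Leaving out 1 library gave -0.0973 to 0.0662 for IFI6, -0.217 to 0.124 for IFI27, -0.0436 to 0.0965 for IFITM1, -0.126 to 0.000838 for OASL and -0.00561 to 0.101 for DDX60. It gave -0.0507 to 0.0269 for TRIM25, -0.0162 to 0.0594 for IFIH1 and -0.0413 to 0.0202 for ADAR. For the other settings the cause was not tested.

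With the replicate number as a block, 8 members were higher and 4 lower, 3330 genes higher and 3633 lower, 19 pathway genes higher and 15 lower, and 0 start peaks higher and 4 lower. No splicing event of a member was called with the block or in any other alternative, by edgeR, against 6 at an unadjusted p under 0.05. Start peaks stayed at 0 higher and 3 to 4 lower under each alternative. FPKM without counts leave the precision of genes such as STING1, MX2 and IFIT2 to the spread of 3 libraries.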
